A study of Arabidopsis thaliana with 20 samples.

Results

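The probes described here gave more signal in CK-treated than in mock-treated roots of wild-type (WT) Arabidopsis and less signal in untreated roots of the arr1/10/12 triple mutant than in untreated WT roots. They were 307 of the 43603 probes on the array, chosen from measured values by fixed limits. A member had a signal well above background on both CK-treated and both untreated WT arrays, a mean log2 signal at least 1 higher after CK than after mock, and a mean log2 signal at least 1 lower in arr1/10/12 than in untreated WT. Of the 319 probes inside these limits, 12 belong to genes that were left out by name, among them the type-A regulators ARR3, RR5, ARR7, ARR15, RR16, and RR17 and the receptor gene WOL. Of the members, 151 could be paired with a gene of the study's supplementary list and 156 could not and are called by their probe names. The copy of the list used here holds fewer genes than the study reports as changed. An unpaired probe may therefore still belong to a gene the study called. The array holds more probes than genes, so counts of members are counts of probes and may hold a gene more than once. That list holds genes the study picked from these same arrays, so its members are not an independent sample. The files and references used here hold no probe or promoter sequence, and none is shown.

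CK (cytokinin) is perceived by histidine kinase receptors, which pass phosphate through carrier proteins to the type-B response regulators in the nucleus. ARR1, ARR10, and ARR12 are type-B regulators, DNA-binding transcription factors that switch on CK-responsive genes in roots. Among their known targets are the type-A ARR genes, whose products dampen the same pathway, and genes of CK breakdown.

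Root RNA of 10-day-old Col-0 seedlings carried the dye Cy3 and was measured on one-colour Agilent arrays. There were 10 groups, each with 2 biological replicates. Untreated roots came from arr1/10/12, the double mutants arr10/12, arr1/12, and arr1/10, the single mutants arr12, arr10, and arr1, and WT, where all mutants combine the T-DNA alleles arr1-3, arr10-5, and arr12-1 of the genes named. WT seedlings were also treated for 1 hour with 5 μM N6-benzyladenine, an aromatic CK, or with mock solution. In whole roots, fewer cells of a type and less RNA per cell cannot be told apart.

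The median log2 intensity of an array before normalization was 8.21 to 9.61, and 71.82% to 78.84% of probes were well above background. At its own probe, ARR10 had log2 signals of 4.74 to 8.57 on the arrays of the 4 mutants that lack it and 13.25 to 13.70 on the other untreated arrays. ARR12 had 3.63 to 5.74 on the arrays of its 4 mutants and 11.72 to 12.19 on the other untreated arrays. ARR1 had 7.58 to 8.28 in arr1/10/12, arr1/12, and arr1/10, but 12.27 and 12.52 on the arrays labelled arr1 and 11.99 and 12.01 in WT. The label arr1 is therefore not borne out at this probe, and the counts of members called lower in all double mutants, in arr1/12, and in arr1/10 are also given without the arrays labelled arr1. The 4 treated arrays lay on slides of their own for each treatment, so slide and treatment cannot be told apart.

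The values that chose the members are given as a description, with no test. CK minus mock had a median log2 difference of 1.44 over the members, with a range of 1.00 to 5.45. Triple mutant minus WT had a median of −2.32 and a range of −7.67 to −1.001. Both CK arrays lay above both mock arrays for 301 members, an order that 33.0% of all tested probes showed. Both arr1/10/12 arrays lay below both WT arrays for 304 members, against 39.8% of all tested probes. In arr1/10/12, 99 members were well above background on neither array, 28 on 1 array, and 180 on both. Of the eligible probes, 565 passed the CK limit and 4285 passed the triple mutant limit, so 56.5% of those past the CK limit and 7.44% of those past the triple mutant limit passed both. Just inside the limits were A_84_P843800 (CK minus mock 1.00), AT2G17660 (triple minus WT −1.001), AT5G06380 (1.00 for CK), A_84_P53580 (−1.01 for the triple mutant), and AT3G25597 (1.01 for CK). Just outside were AT1G72590, AT4G23420, A_84_P15036, A_84_P607949, and A_84_P16698, with CK minus mock of 0.99 to 1.00.

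**Figure D1:**
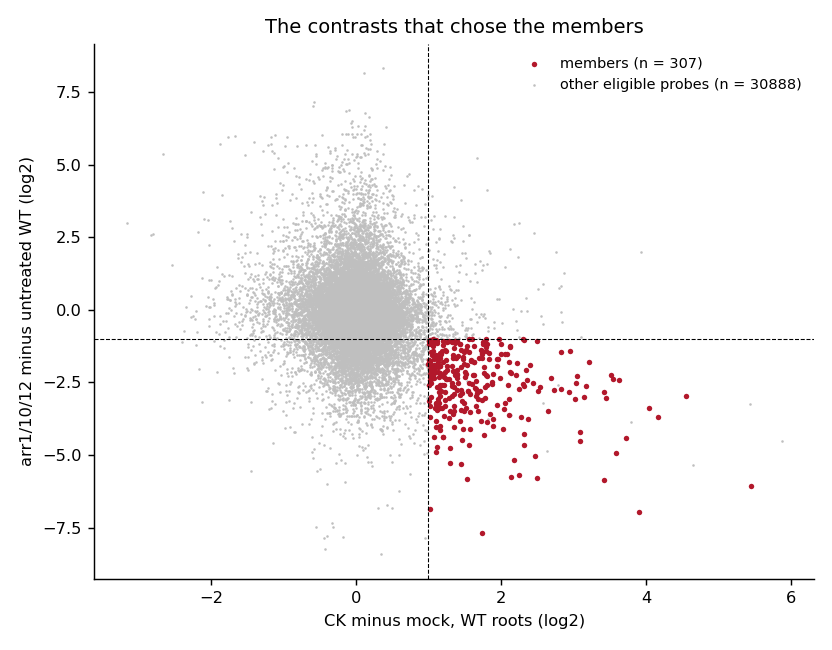
CK minus mock in WT roots (x axis, log2) against arr1/10/12 minus untreated WT (y axis, log2) for the probes well above background in CK-treated and untreated WT. Red points are the 307 members, which lie beyond both dashed limits by construction, and grey points are the other eligible probes, among them the genes left out by name.

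Set against untreated WT, the members differed in where their CK and mock values lay. All 3 groups entered the choice of members, which by itself favours low mock and high untreated WT signals, so the shares of all probes given here are a description and nothing is read from the difference. In 112 members the CK mean was at least 1 above untreated WT while the mock mean was less than 1 below it. In 108 members the mock mean was at least 1 below untreated WT and the CK mean was less than 1 above it. Both held for 16 members and neither for 71. The CK mean was below untreated WT in 67 members. Both mock arrays lay below both untreated WT arrays for 215 members (29.8% of all tested probes did), both mock arrays above both WT arrays for 28 members (24.2% of all tested probes), and both CK arrays above both WT arrays for 208 (33.6% of all tested probes). The median of mock minus WT was −0.76 over the members and −0.03 over all tested probes, and that of CK minus WT was 0.74 and −0.01.

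CKX3, a CK oxidase that breaks CK down, was of the first kind. Its log2 signal was 11.31 and 11.30 after CK and 7.82 and 7.95 after mock, with 8.47 on both untreated WT arrays. AT2G35990, a gene of the LONELY GUY family, whose enzymes release active CK from its nucleotide form, was of the second kind. It had 9.25 and 9.05 after CK and 3.64 and 6.86 after mock, while untreated WT had 9.36 and 9.32. Its value on mock replicate 1 was not well above background, and its CK arrays did not exceed untreated WT. Of the members with a CK pathway role, ARR4, ARR6, CKX3, and CKX5 were of the first kind, as were all 4 glutaredoxins, while 5 of 8 cell wall members and both genes named for root hairs were of the second. The split used arrays that chose the members and slides that differ by treatment, and it was made after the values were seen. The mock arrays themselves differed: replicate 1 was below replicate 2 in 264 of 307 members, by a median of −0.44, where the median over all tested probes was −0.04. Without mock replicate 1 the limits kept 222 probes, and without mock replicate 2 they kept 454.

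**Figure D2:**
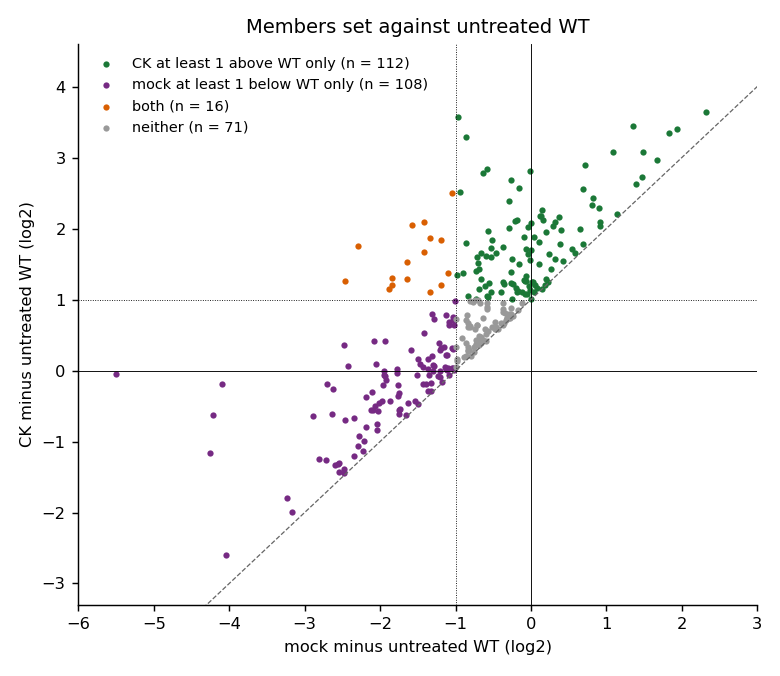
Mock minus untreated WT (x axis, log2) against CK minus untreated WT (y axis, log2), 1 point per member, with the means of 2 arrays a group. Green points (112) lie at least 1 above WT after CK, purple points (108) at least 1 below WT after mock, orange points (16) both, and grey points (71) neither, and the dashed line marks CK minus mock of 1, below which no member can lie.

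The arrays of the double and single mutants took no part in choosing the members, and whether members differ there was tested with limma over the 34034 probes that passed the filter on dim signals, which asks for signal well above background in both replicates of some group. Relative to the mean of the 3 single mutants, the mean of the 3 double mutants was lower for 150 of 307 members (48.9%), called at an adjusted p below 0.05, whereas 7.96% of all tested probes were called lower. The difference was positive and past the same limit for 3 members, A_84_P558224, A_84_P288500, and A_84_P761311, whereas 9.40% of all tested probes were called higher. The median over the members was −0.42 on the log2 scale (interquartile range −0.71 to −0.14), and −0.01 over all tested probes. All 6 double mutant arrays lay below all 6 single mutant arrays for 81 members (26.4%), against 5.25% of all tested probes. Among paired members 101 of 151 were called lower, and among unpaired members 49 of 156. Without the arrays labelled arr1, 122 members were called lower. Of the 267 members well above background on all 12 of these arrays, 135 were called lower, so 15 of the 150 calls rest on arrays with a signal near background. Root hair markers moved with these counts: EXPA7, a root hair expansin that is not a member, had a double minus single difference of −0.71 (adjusted p = 0.0101), and RSL4, a regulator of root hair growth that is not a member, had −0.55 (adjusted p = 0.00409). These were the 2 root hair markers of 4 that could be paired with a probe, APL of the phloem had −0.17 (adjusted p = 0.662), and no leaf, endodermis, xylem, or meristem marker could be paired. Pairing asked for a place on the copy used here of the study's list of genes changed in these arrays, so the paired markers were preselected. A marker without a pair may still have been called by the study. Their part in the result was not tested.

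**Figure D3:**
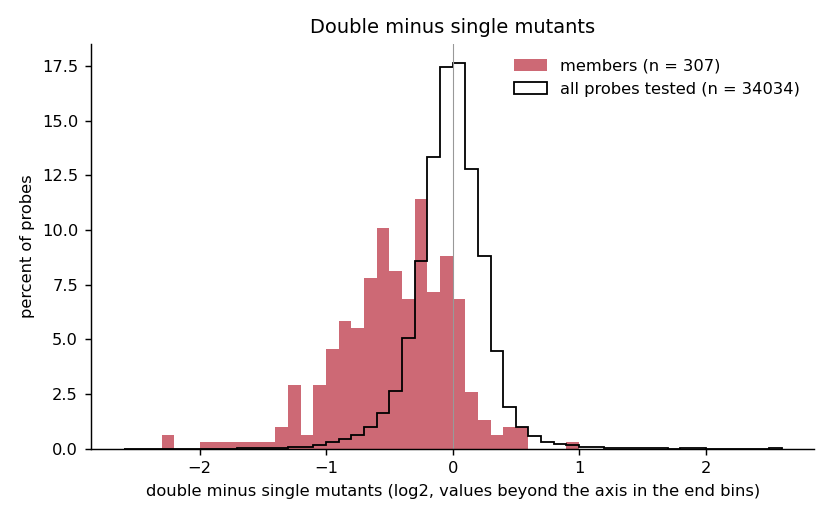
Distribution of double minus single mutants (x axis, log2) as percent of probes (y axis), for the 307 members (red) and all 34034 tested probes (black line). The members are shifted to the left, with a median of −0.42 against −0.01.

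Members with lower signal in the double mutants were found in all but 1 of the 9 roles given to 74 of the paired members by their descriptions, after their values were seen. In CK response and metabolism 4 of 5 were called lower, in bHLH transcription factors 6 of 10, in other transcription regulators 9 of 13, in transporters 9 of 10, in triterpene and other specialized metabolism 13 of 15, in cell wall 7 of 8, in calcium binding and kinases 4 of 7, and both of the genes named for root hairs. None of the 4 glutaredoxins was called. Over all tested probes the share called lower was 7.96%, as above, but these roles hold only paired members, of which 101 of 151 were called lower. Paired members are genes the study called changed in these arrays, so 7.96% is not a fitting reference for them. The lists themselves were not tested.

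Of the type-A regulators that stayed in the set, ARR4 had log2 signals of 11.55 and 11.89 in arr1/10/12, 13.97 and 14.17 in arr10/12, 13.53 and 13.73 in arr1/12, 13.41 and 13.69 in arr1/10, 14.27 and 14.36 in arr12, 14.22 and 14.51 in arr10, 14.00 and 14.22 in arr1, 14.09 and 14.52 in WT, 15.86 and 15.89 after CK, and 13.87 and 14.25 after mock. Both arr1/12 and both arr1/10 arrays lay below every single mutant array, as did 1 of the 2 arr10/12 arrays, and the triple mutant lay lowest. ARR4 fell by 0.51 in the double relative to the single mutants (SE 0.11, adjusted p = 0.0112). ARR6, also a type-A regulator that dampens CK signaling, had 7.96 and 8.57 in arr1/10/12, 11.05 to 11.67 in the double mutants, 11.59 to 11.96 in the single mutants, 11.79 and 12.13 in WT, 13.23 and 13.44 after CK, and 10.75 and 11.36 after mock. Its double minus single difference was −0.43 (SE 0.13, adjusted p = 0.0401), and it was past the limit under 10 of 22 other settings. ARR6 overlaps another annotated gene, so its probe may not report it alone.

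AT2G35990 had 2.30 and 2.42 in arr1/10/12, well above background on neither array, 8.54 and 8.57 in arr10/12, 6.30 and 5.95 in arr1/12, 7.90 and 8.16 in arr1/10, 9.79 and 8.74 in arr12, 9.62 and 9.70 in arr10, and 9.33 and 9.09 in arr1. Its signal was 80.5-fold lower in arr1/10/12 than in WT, with dim signals raised to a floor. That floor is the lowest signal well above background on each arr1/10/12 array. Some probes with higher signals were not well above background there, so the floor is no detection limit and the fold no lower bound. AT2G35990 fell by 1.81 in the double relative to the single mutants (SE 0.40, adjusted p = 0.0140), and each of the 6 double mutant arrays was below each of the 6 single mutant arrays. Its values were lowest in arr1/12, which differed from the mean of its single mutants by −3.11 (SE 0.61, adjusted p = 0.0295). YLS9, named for its expression in yellowing leaves and the annotated neighbour of AT2G35990, fell by 1.24 (SE 0.17, adjusted p = 0.00291). It had 9.35 and 10.31 in arr1/10/12, 9.94 to 11.75 in the double mutants, 11.72 to 12.72 in the single mutants, 12.02 and 12.51 in WT, 14.20 and 14.01 after CK, and 11.46 and 12.03 after mock.

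The CK oxidases differed from each other. CKX3 had 5.40 and 5.86 in arr1/10/12, 8.58 and 8.23 in arr10/12, 7.41 and 7.24 in arr1/12, 8.09 and 7.96 in arr1/10, 8.74 and 8.48 in arr12, 8.64 and 8.50 in arr10, and 8.05 and 7.92 in arr1. Only the arr1/12 arrays, of the double mutants, lay below all single mutant arrays. CKX3 fell by 0.47 in the double relative to the single mutants (SE 0.09, adjusted p = 0.00875) and was lower in arr1/12 than in arr10/12 by −1.08 (SE 0.16, adjusted p = 0.00772). CKX5, which breaks down CK as well, had 5.78 and 6.52 in arr1/10/12, 8.47 to 9.37 in the double mutants, 8.61 to 8.95 in the single mutants, 8.86 and 8.97 in WT, 11.47 and 11.49 after CK, and 8.58 and 8.93 after mock. Its double and single mutant arrays overlapped, and its difference was −0.07 (SE 0.11, adjusted p = 0.683). The gene models of CKX5 and UBC16, a ubiquitin-conjugating enzyme that is also a member, overlap, so their signals may not be separate. Of a list of 42 CK pathway genes, these 4 genes (ARR4, ARR6, CKX3, CKX5) were the ones paired with a probe, and all 4 were members. Genes could be paired only if the study had called them changed in these arrays and the copy of its list used here held them, so nothing is read from this count.

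Transcription regulators among the members included 10 genes of the bHLH family. AT4G25410, a bHLH gene, had 2.35 and 4.16 in arr1/10/12, well above background on neither array, and 8.87 and 9.37 in WT. With the floor named above it was 58.3-fold lower in the triple mutant. Its double mutant arrays lay at 8.98 and 9.06 in arr10/12, 7.38 and 7.63 in arr1/12, and 8.19 and 8.57 in arr1/10, and its single mutant arrays at 8.66 to 9.24. The double minus single difference of −0.62 was not past the limit (SE 0.24, adjusted p = 0.0908), though it was under 6 of 21 other settings, with the replicate number as a block among them (adjusted p = 0.0333). AT2G22750 likewise had a difference of −0.51 (SE 0.23, adjusted p = 0.138, or 0.0255 with the replicate block), and its signal was 4.49 and 5.31 in arr1/10/12, 6.74 to 7.72 in the double mutants, 7.54 to 7.94 in the single mutants, 7.48 and 8.48 in WT, 9.15 and 9.10 after CK, and 5.53 and 6.66 after mock. AT2G22760, another bHLH member, lies between AT2G22750 and NAI1, which is needed to form ER bodies, in the annotation. NAI1 was called lower, with −0.45 (adjusted p = 0.00886), as were AT2G14760, AT5G43175, AT5G51790, AT5G51780, and AT1G62975, with differences of −1.03 to −0.24.

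All 3 members named as TCP interactors with an EAR motif, repressors that bind TCP transcription factors, had lower means in the double mutants, though 1 of the 3 missed the limit, and TIE1 and TIE2 were singled out after their values were seen. TIE2 had 8.64 and 8.91 in arr1/10/12, 12.54 and 12.71 in arr10/12, 12.33 and 12.24 in arr1/12, 11.73 and 12.10 in arr1/10, 12.80 to 13.10 in the single mutants, 12.90 and 13.19 in WT, 14.38 and 14.40 after CK, and 11.80 and 12.33 after mock. Every double mutant array was below every single mutant array, and TIE2 fell by 0.61 (SE 0.10, adjusted p = 0.00606). TIE1 fell by 0.43 (SE 0.10, adjusted p = 0.0154), with 7.57 and 8.09 in arr1/10/12, 9.49 to 10.52 in the double mutants, 10.25 to 10.68 in the single mutants, and 12.28 on both CK arrays against 9.87 and 10.21 after mock. TIE4 had 2.46 and 4.28 in arr1/10/12, 7.05 and 7.004 in arr10/12, 4.97 and 4.67 in arr1/12, 6.22 and 6.31 in arr1/10, 6.43 to 7.16 in the single mutants, 6.72 and 6.81 in WT, 8.63 and 8.40 after CK, and 4.04 and 4.90 after mock. TIE4 was well above background on neither array of arr1/10/12 and of arr1/12, and its double minus single difference of −0.78 missed the limit (SE 0.25, adjusted p = 0.0534) and passed it with the replicate block (adjusted p = 0.0421). With normexp, another background correction, it was −0.37. Other regulators called lower were the zinc finger genes AT1G02040, AT2G18490, and AT1G68360, OFP11, MYB39, which promotes suberin formation in the endodermis, ZFP5, which promotes trichomes and root hairs, and LBD4, with differences of −1.34 to −0.22. IAA5, a repressor of auxin-responsive transcription, had −0.22 (adjusted p = 0.149).

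**Figure D4:**
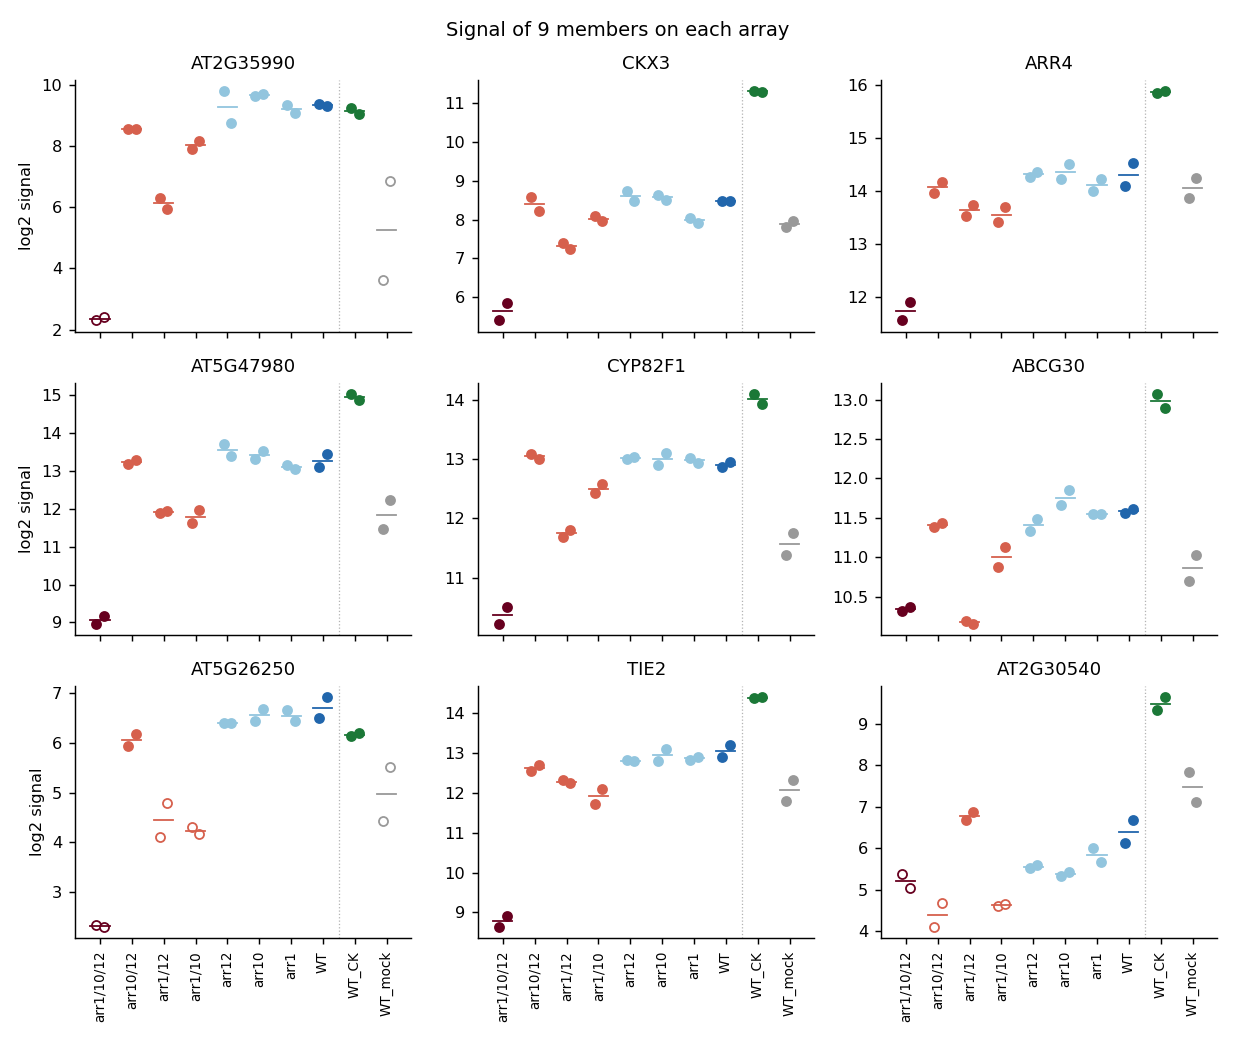
Log2 signal (y axis) of 9 members on each of the 20 arrays, grouped by genotype and, right of the dotted line, by treatment of WT. Points are arrays, short lines are means of 2 arrays, and open points mark groups where not both arrays were well above background. For AT2G30540 the arr1/12 arrays, at 6.67 and 6.88, are the highest of the mutants.

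Of a list of 7 triterpene cluster genes, 4 could be paired with a probe and all 4 were called lower in the double mutants. Only genes that the study had called changed in these same arrays could be paired, so this count is a description and no independent support. Thalianol, a root triterpene, is made by enzymes whose genes lie in a cluster. THAS1, the thalianol synthase, had 11.36 and 11.71 in arr1/10/12, 14.10 and 14.28 in arr10/12, 13.33 and 13.36 in arr1/12, 13.15 and 13.62 in arr1/10, 14.12 to 14.40 in the single mutants, 13.74 and 13.97 in WT, 14.33 and 14.21 after CK, and 12.95 and 13.57 after mock. THAS1 fell by 0.64 (SE 0.11, adjusted p = 0.00691). AT5G47980, an acyltransferase gene of the same cluster, had 8.97 and 9.17 in arr1/10/12, 13.17 and 13.29 in arr10/12, 11.90 and 11.95 in arr1/12, 11.63 and 11.95 in arr1/10, 13.05 to 13.71 in the single mutants, 13.10 and 13.45 in WT, 15.01 and 14.85 after CK, and 11.47 and 12.22 after mock. It fell by 1.04 (SE 0.12, adjusted p = 0.00125), and both double mutants without ARR1 lay below arr10/12, by −1.31 for arr1/12 (SE 0.21, adjusted p = 0.0180) and by −1.44 for arr1/10 (SE 0.21, adjusted p = 0.0117). CYP708A2 and CYP705A5, the other cluster enzymes paired with a probe, missed the CK limit with 0.98 and 0.93 and so were not members, and they fell by 0.60 and 0.70 (adjusted p = 0.00795 and 0.00252).

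CYP82F1, a cytochrome P450, and its annotated neighbour AT2G25150, an acyltransferase gene, were both members. CYP82F1 had 10.23 and 10.51 in arr1/10/12, 13.08 and 13.005 in arr10/12, 11.69 and 11.81 in arr1/12, 12.43 and 12.57 in arr1/10, 12.90 to 13.10 in the single mutants, 12.86 and 12.95 in WT, 14.09 and 13.93 after CK, and 11.38 and 11.75 after mock. The arr10/12 arrays lay among the single mutants and the arr1/12 arrays lowest of the double mutants. CYP82F1 fell by 0.57 over all double mutants (SE 0.08, adjusted p = 0.00262) and was lower in arr1/12 than in arr1/10 by −0.75 (SE 0.13, adjusted p = 0.0484). AT1G34520, a wax synthase family gene, had 2.34 and 2.33 in arr1/10/12, 6.13 and 6.19 in arr10/12, 4.85 and 4.07 in arr1/12, 4.04 and 5.09 in arr1/10, 5.96 to 7.35 in the single mutants, 6.35 and 7.14 in WT, 8.27 and 7.76 after CK, and 3.05 and 5.51 after mock. With the same floor it was 13.2-fold lower in arr1/10/12 than in WT. It fell by 1.75 in the double mutants (SE 0.35, adjusted p = 0.0103), where 3 of 6 arrays were well above background, and its difference was −0.84 with normexp. Further members called lower were the squalene epoxidase homolog SQP2 (−1.16), the sterol desaturase CYP710A4 (−0.79), CYP89A7 (−0.77), CYP87A2 (−0.46), the glucosyltransferase UGT76D1 (−0.43), and the glutathione transferase GSTU26 (−0.30), while NAMT1 had −0.16 (adjusted p = 0.183) and ST4B −0.60 (adjusted p = 0.0753).

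Of the transporters, ABCG30 had the lowest p of all paired members in double against single mutants. This ABC transporter had 10.32 and 10.37 in arr1/10/12, 11.38 and 11.43 in arr10/12, 10.20 and 10.16 in arr1/12, 10.87 and 11.12 in arr1/10, 11.33 and 11.49 in arr12, 11.66 and 11.85 in arr10, 11.55 on both arr1 arrays, 11.56 and 11.61 in WT, 13.07 and 12.89 after CK, and 10.69 and 11.02 after mock. The arr1/12 arrays lay below those of the triple mutant. ABCG30 fell by 0.71 in the double relative to the single mutants (SE 0.07, adjusted p = 0.000480), by 1.30 in arr1/12 (SE 0.11, adjusted p = 7.15e-05), and was lower in arr1/12 than in arr10/12 by −1.23 (SE 0.12, adjusted p = 0.000439). ABCG30 overlaps another protein-coding gene in the annotation. AT5G26250, a putative sugar transporter, had 2.34 and 2.30 in arr1/10/12, 5.93 and 6.18 in arr10/12, 4.11 and 4.79 in arr1/12, 4.31 and 4.16 in arr1/10, 6.39 to 6.67 in the single mutants, 6.49 and 6.91 in WT, 6.13 and 6.19 after CK, and 4.42 and 5.50 after mock. Its signal was well above background on no array of arr1/10/12, arr1/12, and arr1/10, and it fell by 1.58 over the double mutants (SE 0.17, adjusted p = 0.000730). With normexp the difference was −0.62. AT1G72140, of the proton-dependent oligopeptide transporter family, fell by 0.72 (SE 0.10, adjusted p = 0.00253), with 9.70 and 10.15 in arr1/10/12, 11.37 to 12.56 in the double mutants, 12.45 to 12.83 in the single mutants, 14.77 and 14.48 after CK, and 13.34 and 13.67 after mock, where WT had 12.45 and 12.72. IRT2, an iron transporter of the root epidermis, and CAT7, a cationic amino acid transporter, were called lower as well, with −1.21 and −0.62, and the MATE efflux gene AT1G33090 had −0.39 (adjusted p = 0.0863).

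Cell wall members were led by EXPB2, a beta-expansin, with a double minus single difference of −1.69 (SE 0.27, adjusted p = 0.00490). Its values were 6.49 and 6.59 in arr10/12, 3.59 and 2.44 in arr1/12, 3.95 and 2.49 in arr1/10, 7.01 and 6.82 in arr12, 7.11 and 6.84 in arr10, 3.61 and 4.32 in arr1, and 6.18 and 6.46 in WT, so that the arrays without signal well above background were those of the genotypes with arr1 in their label. XTH33, of the family of enzymes that cut and rejoin xyloglucan, had 7.41 and 7.37 in arr1/10/12, 9.20 to 9.95 in the double mutants, 9.85 to 10.35 in the single mutants, 9.71 and 10.04 in WT, 12.48 and 12.38 after CK, and 10.44 and 10.68 after mock. XTH33 fell by 0.51 (SE 0.10, adjusted p = 0.0106). Of a list of 7 expansin and wall-loosening genes that holds XTH33, 5 could be paired with a probe and 3 were called lower. The others, EXPA8 and EXPB1, are not members and had −0.38 and −0.07 (limma, adjusted p = 0.0664 and 0.524). AT1G49330, a hydroxyproline-rich glycoprotein gene, fell by 1.32 (SE 0.29, adjusted p = 0.0136), or −0.53 with normexp, with 4.20 and 2.89 in arr1/10/12, 4.32 to 6.06 in the double mutants, 6.33 to 6.83 in the single mutants, 5.82 and 6.73 in WT, 6.74 and 6.52 after CK, and 2.93 and 4.66 after mock. FLA6, AT4G01890 (a polygalacturonase gene), PERK12, and GLP7 were also called lower (−1.35 to −0.29), and GH9B6, a cellulase family gene, had −0.05 (adjusted p = 0.713). RHS2 and RHS18, named as root hair specific, fell by 0.94 and 0.86 (adjusted p = 0.00993 and 0.00386), and all 6 double mutant arrays lay below all 6 single mutant arrays for both.

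None of the 4 glutaredoxins, small redox proteins, was called in the mean of the double against that of the single mutants. AT2G30540 had 5.37 and 5.03 in arr1/10/12, 4.10 and 4.68 in arr10/12, 6.67 and 6.88 in arr1/12, 4.61 and 4.64 in arr1/10, 5.33 to 6.01 in the single mutants, 6.12 and 6.67 in WT, 9.32 and 9.63 after CK, and 7.84 and 7.11 after mock. Its arr1/12 arrays lay above all single mutant arrays, and its arr10/12 and arr1/10 arrays below them. Relative to its single mutants, AT2G30540 was lower in arr1/10 by −0.98 (adjusted p = 0.0406) and higher in arr1/12 by 1.08 (adjusted p = 0.0393). AT2G30540 was higher in arr1/12 than in arr10/12 by 2.38 (SE 0.26, adjusted p = 0.000929) and than in arr1/10 by 2.15 (SE 0.26, adjusted p = 0.00296). AT4G15680 and AT4G15690, neighbours in the annotation and near-identical family members whose probes may share signal, had double minus single differences of 0.25 and 0.17 (adjusted p = 0.357 and 0.511). AT4G15680 had 5.69 and 4.68 in arr1/10/12, 7.27 to 8.64 in the double mutants, 7.43 to 7.99 in the single mutants, 8.23 and 8.04 in WT, 11.74 and 11.81 after CK, and 10.66 and 10.25 after mock. AT4G15690 had 5.15 and 3.95 in arr1/10/12, 6.75 to 7.92 in the double mutants, 6.94 to 7.45 in the single mutants, 7.77 and 7.59 in WT, 11.18 and 10.97 after CK, and 9.79 and 9.43 after mock. In all 3 of these genes both mock arrays lay above both untreated WT arrays. ROXY2 had −0.33 (adjusted p = 0.0614).

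Of the calcium-related genes, AT2G36180, a calmodulin-related gene, fell by 1.29 (SE 0.24, adjusted p = 0.00779), and its difference was −0.39 with normexp. Its values were 3.06 and 2.37 in arr1/10/12, 3.26 to 4.31 in the double mutants, 4.46 to 5.60 in the single mutants, 5.52 and 5.96 in WT, 8.34 and 8.16 after CK, and 4.22 and 5.39 after mock, and 1 of its 6 double mutant arrays was well above background. AT2G19410, a protein kinase family gene, fell by 1.22 (SE 0.17, adjusted p = 0.00306), with 6.44 and 6.89 in arr1/10/12, 8.91 to 10.00 in the double mutants, 10.24 to 11.11 in the single mutants, 10.58 and 10.97 in WT, 10.21 and 10.12 after CK, and 7.62 and 8.65 after mock. The annexin genes ANNAT4 and ANNAT3, neighbours in the annotation that encode calcium-dependent membrane-binding proteins, fell by 0.65 and 0.50 (adjusted p = 0.00767 and 0.00697). MAPKKK17, CIPK3, and NCRK, all kinases, had −0.26, −0.14, and 0.01 (adjusted p = 0.137, 0.261, and 0.953), and the fit lacked 1 array each for MAPKKK17 and NCRK, where the only spot was an outlier.

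Members outside these roles included several of the largest changes. AT3G28570, an AAA-type ATPase gene, had 3.90 and 3.25 in arr10/12, 2.23 and 2.90 in arr1/12, 3.76 and 3.11 in arr1/10, 4.80 and 4.15 in arr12, 6.08 and 6.46 in arr10, and 5.73 and 5.61 in arr1. None of its double mutant arrays was well above background. With dim signals raised to the floor it was 4.50-fold lower there than in the single mutants on the processed signal. The fitted log2 difference of AT3G28570 was −2.28 (adjusted p = 0.00306), but −0.68 with normexp and −0.87 in the authors' table, so the 4.50-fold holds for the processed signal alone. AT5G27260, of unknown function, had 2.35 and 2.46 in arr1/10/12, 4.51 to 5.17 in the double mutants, 5.23 to 6.07 in the single mutants, 6.07 and 6.12 in WT, 9.43 and 9.35 after CK, and 5.13 and 5.33 after mock, and fell by 0.74 in the double mutants (SE 0.08, adjusted p = 0.00100). With normexp its difference was −0.28. AT3G20557, also of unknown function, fell by 1.26 (SE 0.15, adjusted p = 0.00115), with 4.82 and 5.08 in arr1/10/12, 6.78 to 7.80 in the double mutants, 8.21 to 8.97 in the single mutants, 8.49 and 8.84 in WT, 7.48 and 7.20 after CK, and 5.78 and 6.34 after mock. In AT3G20557 the CK arrays lay below the untreated WT arrays and the mock arrays lower still.

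AT5G17720, an alpha/beta hydrolase gene, had 2.44 and 2.59 in arr1/10/12, 5.85 to 6.93 in the double mutants, 6.90 to 7.37 in the single mutants, 6.85 and 7.21 in WT, 6.20 and 5.53 after CK, and 2.55 and 2.99 after mock. With a floor on the mock arrays it was 8.55-fold higher after CK than after mock. It fell by 0.86 in the double mutants (SE 0.14, adjusted p = 0.00471), or −0.49 with normexp. AT1G34330, annotated as a peroxidase pseudogene, fell by 0.90 (SE 0.13, adjusted p = 0.00291), with 3.35 and 3.59 in arr1/10/12, 8.13 to 8.89 in the double mutants, 9.21 to 9.57 in the single mutants, 9.23 and 9.26 in WT, 9.36 and 9.27 after CK, and 6.37 and 7.26 after mock. AT2G31540, a GDSL lipase gene, fell by 0.57 (SE 0.08, adjusted p = 0.00288), with 6.55 and 6.58 in arr1/10/12, 9.25 to 9.85 in the double mutants, 9.82 to 10.28 in the single mutants, 10.01 and 10.15 in WT, 9.59 on both CK arrays, and 7.86 and 8.17 after mock. These genes share CK values that do not pass untreated WT by 1 and mock values well below it. Of the unpaired members, A_84_P843444 had 3.001 and 2.37 in arr1/10/12, 7.91 and 8.12 in arr10/12, 5.55 and 5.18 in arr1/12, 7.34 and 7.57 in arr1/10, 8.39 to 9.32 in the single mutants, 8.70 and 8.82 in WT, 8.86 and 8.56 after CK, and 2.47 and 4.05 after mock. It fell by 1.95 in the double mutants (SE 0.23, adjusted p = 0.00125) and, with a floor on the mock arrays, was 43.6-fold higher after CK than after mock. A_84_P11459 fell by 1.02 (SE 0.16, adjusted p = 0.00473), with 2.58 and 2.75 in arr1/10/12, 6.90 to 7.49 in the double mutants, 7.92 to 8.43 in the single mutants, 7.37 and 7.85 in WT, 7.02 and 6.95 after CK, and 2.84 and 3.96 after mock. A_84_P788412 had a difference of −0.43 (SE 0.23, adjusted p = 0.205; −0.18 with normexp), with 3.80 and 4.99 in arr1/10/12, 6.44 to 7.01 in the double mutants, 6.96 to 7.31 in the single mutants, 6.90 and 7.88 in WT, 8.64 and 8.74 after CK, and 5.03 and 6.05 after mock.

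The double mutants were then taken one at a time, each against the mean of its 2 single mutants, to ask what the loss of a second ARR goes with. In arr1/10, 70 members were called lower (22.8%, where 1.90% of all tested probes were), with a median difference of −0.52. In arr1/12, 62 were called lower (20.2%, background 0.879%), with a median of −0.47. In arr10/12, 2 were called lower (0.651%, background 0.0441%), with a median of −0.23. With the replicate number as a block, 125 members were called lower in arr1/10, and without the arrays labelled arr1, 23 were called in arr1/10 and 25 in arr1/12. Single arrays decided much of both counts. Without either arr1/10 array, either arr1 array, or arr10 replicate 2, 4 to 12 members were called in arr1/10, and 48 without arr10 replicate 1. Without either arr1/12 array, either arr1 array, or arr12 replicate 1, 10 to 31 were called in arr1/12, and 90 without arr12 replicate 2. Without arr12 replicate 2, 16 were called in arr10/12. The members called in arr10/12 were the unpaired probes A_84_P10661 and A_84_P13754, singled out after their values were seen. A_84_P10661 had 5.66 and 6.08 in arr10/12, close to 5.95 and 6.43 in arr12 alone, and its mean of the single mutants was raised by arr10, with 12.13 and 12.005. Whether an unpaired probe belongs to a deleted gene or to one left out by name was not tested.

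**Figure D5:**
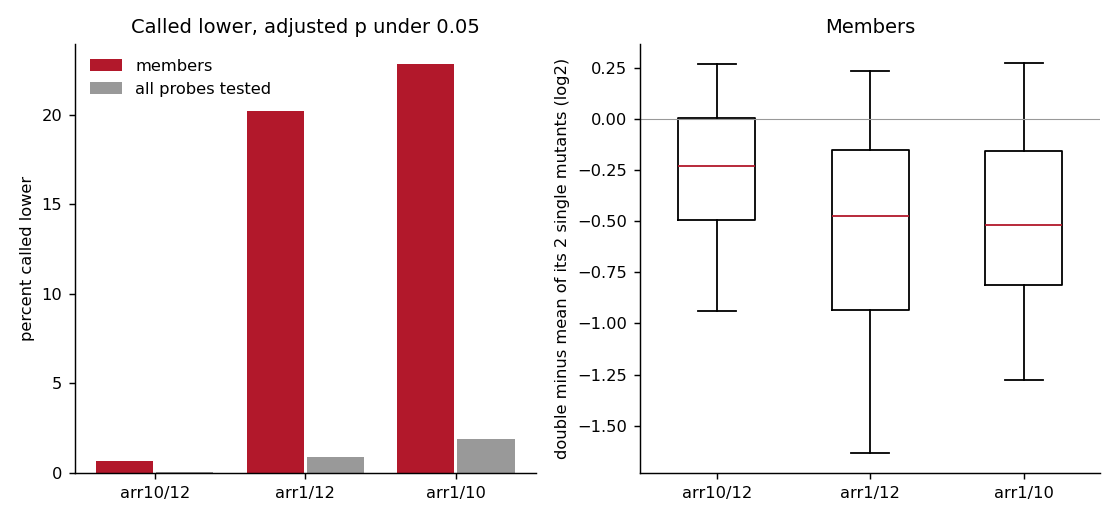
Left, percent of probes called lower (adjusted p below 0.05) in each double mutant than in its 2 single mutants, for the 307 members (red) and all tested probes (grey). Right, the log2 difference over the members, with boxes for the quartiles, red lines for the medians (−0.23 for arr10/12, −0.47 for arr1/12, and −0.52 for arr1/10), and whiskers for the 5th and 95th percentiles.

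Direct comparisons of the double mutants, which each keep a different ARR, called few members. Between arr1/12 and arr10/12, 22 members differed (7.17%, background 0.479%), 19 of them lower in arr1/12, among them CKX3, YLS9, TIE1, IAA5, ANNAT3, AT5G51790, CYP82F1, AT5G47980, and ABCG30. Between arr1/10 and arr10/12, 9 members differed (2.93%, background 0.244%), 7 of them lower in arr1/10, with CYP87A2 at −0.77 (adjusted p = 0.0187). Between arr1/12 and arr1/10, 7 members differed (2.28%, background 0.212%), 5 of them lower in arr1/12. With the replicate block, 14 members differed between arr1/10 and arr10/12 and 12 between arr1/12 and arr1/10. Without any 1 of their 4 arrays, 9 to 14 members differed between arr1/12 and arr10/12 and 2 to 3 between arr1/12 and arr1/10, and without arr10/12 replicate 1, 5 differed between arr1/10 and arr10/12. Whether the loss of an ARR goes with a different change in one single mutant than in another was tested by interaction contrasts, added after the data were seen. Losing ARR12 in arr1 rather than in arr10 gave 1 member (background 0.0999%), CYP82F1, and losing ARR10 in arr1 rather than in arr12 (background 0.123%) or ARR1 in arr10 rather than in arr12 (background 0.0823%) gave 0. At an unadjusted p under 0.05 in limma there were 36 members in the first of these contrasts (1.82% of all tested probes), 32 in the second (2.39%), and 26 in the third (2.81%).

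The single mutants differed from one another in 6 members (limma F-test, background 0.0735%), and 25 members had an unadjusted p under 0.05, as did 2.06% of all tested probes. In 4 of the 6 the arrays labelled arr1 were lowest. These were EXPB2 (adjusted p = 0.0446), AT4G02850 (adjusted p = 0.0446), A_84_P837201 (adjusted p = 0.00115), and A_84_P837979 (adjusted p = 0.0254), named after their values were seen. Whether A_84_P837201 and A_84_P837979 report the same gene was not tested. A_84_P837201 had 12.55 and 12.43 in arr12, 12.51 and 12.46 in arr10, and 11.35 and 11.41 in arr1, against 12.40 and 12.49 in WT, and 11.06 to 11.16 in arr1/12 and arr1/10. The arr1 arrays thus lay below both other single mutants at these probes, while their ARR1 probe did not. A_84_P10661 had 5.95 and 6.43 in arr12 and 11.94 to 12.13 in arr10 and arr1. It had 5.00 and 4.65 in arr1/10/12, 5.66 and 6.08 in arr10/12, 6.04 and 5.50 in arr1/12, and 11.95 and 12.01 in arr1/10, so it was low in every genotype that lacks ARR12. A_84_P13754 was highest of the single mutants in arr1 (10.92 and 10.95), with 10.31 and 10.02 in arr10 and 9.70 and 9.65 in arr12. Without either arr1 array 2 members differed between the single mutants, and without either arr10 array 3 did.

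Set against untreated WT, a comparison that shares its WT arrays with the choice of members and is given with no test, the median over the members was −2.32 in arr1/10/12, −0.24 in arr10/12, −0.60 in arr1/12, −0.53 in arr1/10, −0.08 in arr12, 0.01 in arr10, and −0.10 in arr1. Medians over all tested probes lay between −0.08 and −0.01. AT3G46880, of unknown function, had 2.38 and 2.28 in arr1/10/12, 8.53 to 9.74 in the double mutants, 9.52 to 10.04 in the single mutants, and 10.22 and 9.78 in WT. Its arr1/10/12 arrays, well above background on neither, lay apart from those of every other genotype.

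Some members are neighbours. By the order of protein-coding genes in RefSeq, 12 pairs of paired members stand next to each other, which takes in 22 of 148 genes (14.9%). Over all protein-coding genes of the copy of the study's list used here, 495 of 1975 (25.1%) stand in such a pair. A larger set holds a larger share of neighbours by its size alone, so these shares cannot be compared and nothing is read from them. Among the pairs of members are GLP7 with ARR4 and ARR4 with ZFP5, AT5G51780 with AT5G51790, ANNAT4 with ANNAT3, and the MATE efflux genes AT1G33090 and AT1G33100. Of the paired members, 24 overlap another annotated gene.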

How the data were processed

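Per the file headers, the authors scanned Agilent arrays and deposited, for each spot, a processed intensity (background-subtracted), background signals, and detection and outlier marks. The authors also deposited a value table of log2 signals for the same arrays. It equals, within 5e-09 at all 62976 spots, the log2 median pixel intensity after quantile normalization of the untreated and the treated arrays apart, with no centring, and it was used as an alternative and to name probes. Here, log2 processed intensity of non-control spots was quantile normalized over 20 arrays, the scaling the study's methods name, outlier spots were left out, and spots were averaged for each of 43603 probes. Normexp, an alternative, used the median spot and background signals.

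Differences were tested on the log2 scale with limma 3.58.1 (lmFit and eBayes) in R 4.3.3, in 1 fit over 20 arrays and 10 groups (10 residual degrees of freedom), with Benjamini-Hochberg adjustment over 34034 probes and a threshold of 0.05. Figures used Python 3.11.15. The script was tested on simulated data. Precision is limited by 2 arrays a group. The difference of double and single mutants is the mean of 6 arrays minus the mean of 6. Folds with a floor set the bright mean against the mean of the dim group. On each dim array the higher of the probe's own signal and the lowest signal well above background was taken. These folds are not lower bounds. AT4G15690 at 5.15 and 3.95 in arr1/10/12 was not well above background, though the floors of those arrays were 2.18 and 3.71.

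Probes were paired with genes by matching mutant minus WT differences of the authors' table to the study's supplementary gene list, which was used for identity only. All 2072 genes in the copy of the list used here matched 1 spot within 5e-05. That is fewer genes than the study reports as changed in the triple mutant alone. RefSeq served for neighbours, and no coordinates are given, since its build differs from that of the array. Untreated arrays with the same replicate number shared a slide and a scan day, and their deviations correlated for every pair (0.172 to 0.518), so the numbers pair them. CK and mock arrays did not (−0.0406). The main fit left this pairing out, so its counts and adjusted p ignore it. A fit with the replicate number as a block is given as an alternative.

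The members and all lists and roles were chosen with earlier results of these data known. Genes are named by these rules: the 12 paired members whose smaller size of CK minus mock and triple minus WT is largest, the 12 with the lowest p of double against single mutants, the lists, and 3 unpaired probes, and other names were chosen after their values were seen. The alternatives changed scaling, background, filter, block, fit, weights, thresholds, and arrays.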

Additional observations from a re-analysis of the deposited data

Results flagged for a closer look

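CYP82F1 was the member whose change with the loss of ARR12 differed between genetic backgrounds. Loss of ARR12 went with a log2 difference that was more negative in arr1 (arr1/12 minus arr1) than in arr10 (arr10/12 minus arr10) by −1.27 (limma interaction contrast, adjusted p = 0.0234). The arr1/12 arrays had 11.69 and 11.81 and the arr1 arrays 13.02 and 12.94, and the arr10/12 arrays had 13.08 and 13.005 and the arr10 arrays 12.90 and 13.10. The arrays labelled arr1 are those whose ARR1 probe was not reduced. The difference was −1.23 to −1.21 under 75th percentile scaling, normexp, and the authors' table, and the adjusted p was 0.0151 to 0.0386 over 5 other settings. Leaving out 1 array gave −1.37 to −1.17, and only without arr10 replicate 2 did it stay past the limit (adjusted p = 0.0479), with adjusted p up to 0.153 otherwise.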

How the results depend on the processing

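The count of members lower in double than in single mutants stayed within 1.5 times of 150 under all settings tried (100 to 148 with 1 array left out). The limits themselves kept 169 probes with normexp, 187 with the authors' table, 489 with limits of 0.8, and 192 with limits of 1.2. In arr1/10, 113 members were called with normexp, 41 with no filter, 125 with the replicate block, 123 in a fit of 12 arrays, 148 with array weights, and 23 without the arr1 arrays, and 4 to 48 with 1 array left out. In arr1/12, 41 were called among probes well above background on all 20 arrays, 114 in the fit of 12 arrays, and 25 without the arr1 arrays, and 10 to 90 with 1 array left out. In arr10/12, 4 were called with normexp, 1 among probes well above background on all 20 arrays, and 5 in the fit of 12 arrays, and 2 to 16 with 1 array left out. Between arr1/12 and arr1/10, limma called 0 among probes well above background on all 20 arrays (56 members had an unadjusted p under 0.05 in the fit of all probes), 12 with the block, 12 in the fit of 12 arrays, and 13 with weights, and 2 to 3 with 1 array left out. Between arr1/12 and arr10/12, 40 were called in the fit of 12 arrays and 45 with weights, and 9 to 14 with 1 array left out. Between arr1/10 and arr10/12, 14 were called with the block, 15 in the fit of 12 arrays, and 20 with weights, and 5 to 6 with 1 array left out. Between single mutants, 3 were called with normalization over the 16 untreated arrays, and 2 to 5 with 1 array left out. The AT2G30540 difference of double and single mutants turned to 0.06 with normexp (0.0557) and 0.04 with the authors' table (0.0441). Beside these counts, the double minus single differences of the members named by rule were checked with the replicate block. The block brought AT4G25410, TIE4, and AT2G22750 past the limit and changed no other of these calls. Apart from the CYP82F1 interaction, single-gene calls for other genes or contrasts were not checked with the block. With normexp, AT1G34520, AT5G27260, AT5G17720, AT2G36180, AT1G49330, AT5G26250, and AT3G28570 kept their direction and call with differences over 1.5 times smaller, as given for each. The cause of these shifts was not tested. Probes near background limit the precision of members low in the mutants, and 183 of 307 members rest on 1 spot.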
